A study of Mus musculus with 24 samples.

Results

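The genes described here are 8 genes that Paneth cells and their neighbors in the intestinal epithelium use against microbes: Lyz1, Mmp7, Pla2g2a, Ang4, Itln1, Reg3a, Reg3b and Reg3g. They were chosen by name, with earlier results of these data known. Every probe set (a group of short probes read as 1 measurement) that the array's annotation gives to 1 of them was taken, which gave 12 of the 45101 probe sets on the array. Lyz1 had 3 probe sets, Ang4 and Reg3b had 2 each, and the other 5 genes had 1. None of the 12 carried a second gene symbol, and all 12 were among the 28061 probe sets kept for testing.

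Paneth cells sit at the base of the crypts of the small intestine and release granules filled with lysozyme, alpha-defensins and other antimicrobial proteins into the crypt lumen. Mouse alpha-defensins are made as inactive precursors that the protease Mmp7 cuts into their active form. The lectins Reg3b and Reg3g come from enterocytes as well as Paneth cells, bind bacterial surfaces, and are induced by the microbiota through toll-like receptor and IL-22 signals.

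RNA from the duodenum and the liver of 12 male mice, 7 weeks old and fasted before death, was measured on 24 Affymetrix arrays, 1 array per mouse and tissue. There were 4 groups of 3 mice: wild-type C57BL/6 (B6 WT), Hfe-deficient C57BL/6 (B6 KO), wild-type DBA/2 (D2 WT) and Hfe-deficient DBA/2 (D2 KO). Hfe helps liver cells to set the iron hormone hepcidin, and mice without it load iron, D2 mice more heavily than B6 mice. All groups ate the same diet. The study asked which transcripts respond to the loss of Hfe in either strain and which differ between the strains. Knockout mice were bred in the study's own facility whereas wild-type mice were bought, so that genotype and origin cannot be told apart, and Hfe was absent from every cell of the knockout mice.

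Signals are the deposited MAS5 values, on a linear scale with the same trimmed mean of 100 on every array; the median probe set had a signal of 20.1 to 23.4 on the 12 duodenum arrays. Hfe itself read 76.6 to 105 in wild-type and 15.7 to 45.1 in Hfe-deficient duodenum, which fits the labels of all 12 arrays. Arrays D2 KO 2 and D2 KO 3 stood apart from the rest. All 14 measured genes for enzymes and other products of pancreatic acinar cells had their lowest readings on these arrays: the proenzyme gene Cpa1, an example chosen after its values were seen, read 53.3 and 217 there and 844 to 9320 on the other 10. Over all kept probe sets, D2 KO 2 and D2 KO 3 were the lowest pair of the 12 duodenum arrays in 4.14%. Results that rest on these arrays are therefore given with and without them. A bulk sample cannot tell fewer cells of a type from less RNA per cell.

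The genes were far stronger in duodenum than in liver. The 9 probe sets of the members other than Lyz1 read 0.493 to 32.6 on the liver arrays. Lyz1 probe sets 1436996_x_at and 1439426_x_at read 405 to 1072 and 109 to 230 in liver, and the names of both end in x_at, which marks probes that can bind related transcripts. The macrophage lysozyme gene Lyz2 is a near-identical neighbor of Lyz1, and how the 2 genes share these signals was not tested.

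**Figure D1:**
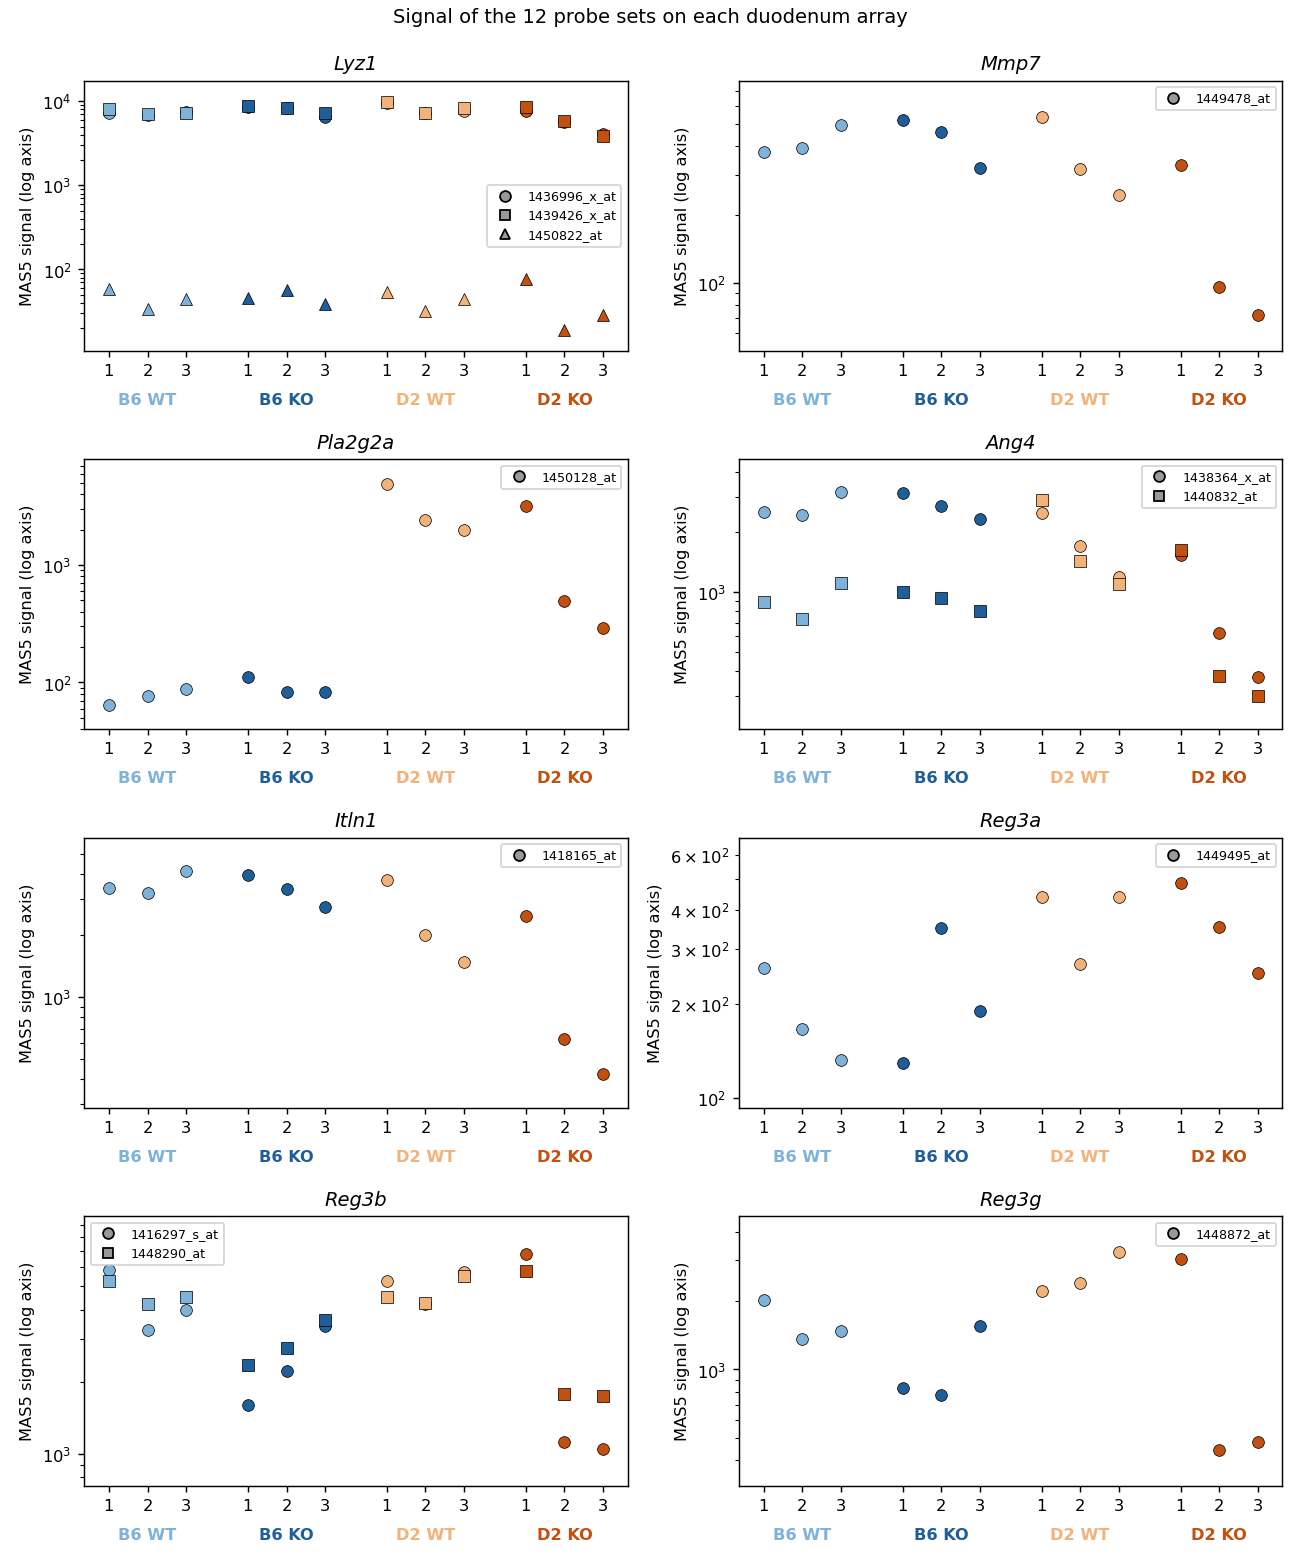
MAS5 signal (log axis) of the 12 probe sets of the 8 genes on each of the 12 duodenum arrays, 1 point per array, grouped by strain and genotype; marker shape separates the probe sets of a gene. D2 KO 2 and D2 KO 3 lie lowest in the Mmp7, Ang4, Itln1, Reg3b and Reg3g panels, D2 KO 1 lies beside the D2 WT arrays, and Pla2g2a is below 112 on every B6 array.

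In D2 mice the knockout arrays were split rather than shifted together. On 1 of the 3 arrays, D2 KO 1, the signals lay within the range of the D2 WT arrays or, for Reg3b, Reg3a and the weak Lyz1 probe set 1450822_at, above it, whereas on D2 KO 2 and D2 KO 3 the signals of Pla2g2a, Reg3g, Ang4, Mmp7, Itln1 and Reg3b were lower than on any D2 WT array. With all 3 arrays, 0 of the 12 probe sets passed limma's test at an adjusted p of at most 0.1, as did 0.378% of all kept probe sets. The estimates of all 12 were nevertheless below 0, with a median log2 fold change of -1.30 beside 0.03 over all kept probe sets, and 10 of 12 had an unadjusted p under 0.05 in the lower direction beside 4.81% of all kept probe sets. Since the genes were chosen with earlier results of these data known, these shares describe the set and do not test it.

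Pla2g2a, a secreted phospholipase that attacks bacterial membranes, had the widest split. Its signal was 4915, 2435 and 1993 on the D2 WT arrays and 3171, 491 and 290 on the D2 KO arrays. D2 KO 1 lay within the wild-type range, and the other two knockout arrays lay well under it. The log2 fold change was -1.91 (SE 0.64, n = 3 per group, adjusted p = 0.280 by limma with Benjamini-Hochberg adjustment).

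Mmp7, the matrix metalloproteinase that activates alpha-defensins, read 540, 318 and 244 in D2 WT and 331, 95.8 and 71.9 in D2 KO duodenum. Again D2 KO 1 was inside the wild-type range and the other two were below it. Its log2 fold change was -1.40 (SE 0.45, adjusted p = 0.262 by limma).

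Itln1 encodes intelectin, a lectin of Paneth and goblet cells that binds sugars of microbial walls. It read 3731, 2014 and 1476 in D2 WT mice and 2493, 623 and 420 in D2 KO mice, the same arrangement as Mmp7. The fold change on the log2 scale was -1.36 (SE 0.50, adjusted p = 0.314 by limma).

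Ang4 is a ribonuclease of the angiogenin family with bactericidal activity that is stored in Paneth cell granules. Probe set 1438364_x_at gave 2499, 1701 and 1185 on the D2 WT arrays and 1544, 626.5 and 376 on the D2 KO arrays; probe set 1440832_at gave 2890, 1426 and 1095 and then 1622, 381 and 300. By both probe sets D2 KO 1 lay within the wild-type range and the other knockout arrays lay below it. The log2 fold changes were -1.26 (SE 0.39, adjusted p = 0.246 by limma) and -1.54 (SE 0.50, adjusted p = 0.270).

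Lyz1, the lysozyme of Paneth cells, which cleaves bacterial peptidoglycan, was split less widely. Probe set 1436996_x_at read 9498, 7203 and 7751 in D2 WT and 7612, 5622 and 4035 in D2 KO mice, and 1439426_x_at read 9805, 7211 and 8367 and then 8515, 5902 and 3884. The order of the knockout arrays was as for Mmp7, but the lowest of them kept a signal near 4000. Log2 fold changes were -0.54 (SE 0.19) and -0.53 (SE 0.22), with adjusted p of 0.296 and 0.358 by limma. The remaining probe set, 1450822_at, was weak, at 19.1 to 76.9 on the duodenum arrays, with an estimate of -0.30 (SE 0.41).

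The Reg3 lectins did not act as 1 group. Reg3b read 4516, 4243 and 5526 in D2 WT and 5761, 1780 and 1739 in D2 KO mice by probe set 1448290_at, and 5264, 4202 and 5743 and then 6844, 1120 and 1047 by 1416297_s_at. For Reg3g, a lectin that kills Gram-positive bacteria, the readings were 2205, 2397 and 3256 and then 3052, 442 and 483. D2 KO 1 was above every D2 WT array for Reg3b and within their range for Reg3g, with the remaining knockout arrays far below.

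The fold changes on the log2 scale in D2 mice were -0.86 (SE 0.35, adjusted p = 0.360 by limma) and -1.33 (SE 0.55, adjusted p = 0.368) for the Reg3b probe sets and -1.57 (SE 0.56, adjusted p = 0.300) for Reg3g. Reg3a, another lectin of the family, read 440, 268 and 438 in D2 WT and 488, 353 and 251 in D2 KO mice. Its groups overlapped almost fully, and its log2 fold change was -0.09 (SE 0.36).

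**Figure D2:**
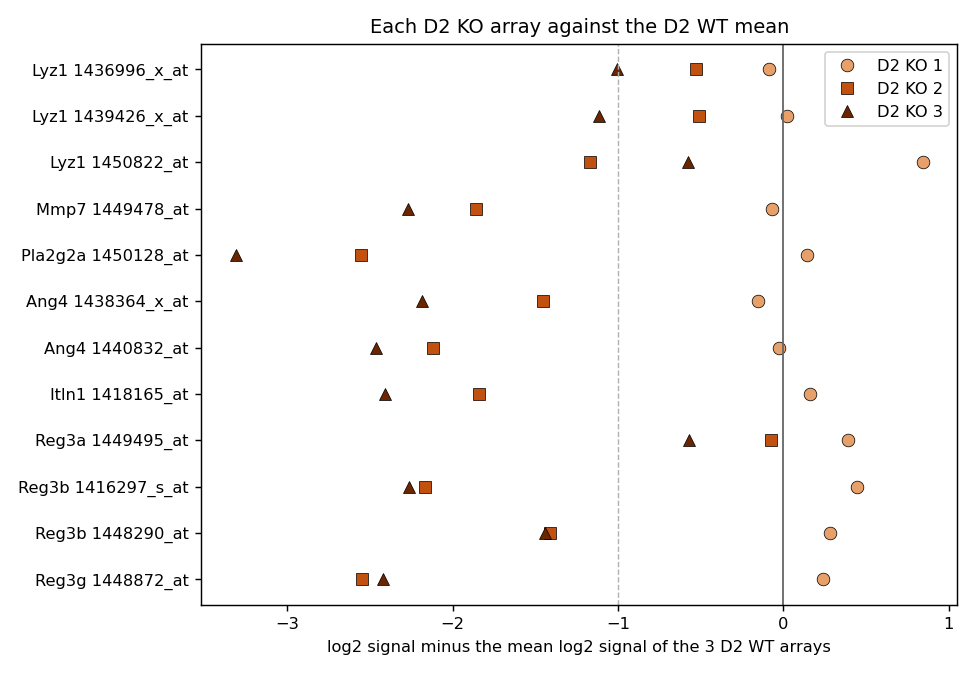
Log2 signal of each D2 KO array minus the mean log2 signal of the 3 D2 WT arrays, for the 12 probe sets; the solid line marks 0 and the dashed line 1 log2 unit below the wild-type mean. D2 KO 1 lies between -0.15 and 0.84, whereas D2 KO 2 and D2 KO 3 reach -2.55 and -3.31 for Pla2g2a and lie nearest to 0 for Reg3a (-0.08 and -0.57).

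The split was common to most of the genes. D2 KO 2 and D2 KO 3 were the lowest pair of the 12 arrays in 10 of the 12 probe sets, beside 4.14% of all kept probe sets. The exceptions were Reg3a and Pla2g2a, which was lower still in every B6 mouse. Both arrays were over 1 log2 unit below the D2 WT mean in 8 of the 12, as they were in 1.55% of all kept probe sets. The distances from the D2 WT mean were -2.55 and -3.31 on the log2 scale for Pla2g2a, -2.55 and -2.42 for Reg3g and -1.86 and -2.27 for Mmp7, against 0.14, 0.24 and -0.07 for the same genes on D2 KO 1.

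The call in D2 mice therefore turned on which arrays were fitted. Without D2 KO 1, 10 of the 12 probe sets passed and all 10 were lower, as were 1.44% of all kept probe sets; Reg3a and the weak Lyz1 probe set 1450822_at did not pass. Pla2g2a was then at -2.93 (SE 0.33, adjusted p = 0.00188 by limma), Reg3g at -2.48 (SE 0.27, adjusted p = 0.00154) and Lyz1 at -0.76 and -0.81. D2 KO 1 was singled out by its values for these same genes, and the knockout arrays left are the low ones. The calls and adjusted p without it therefore describe the split and are no test of the knockout. Without D2 KO 2 and D2 KO 3, 0 of 12 passed and the estimates for D2 KO 1 alone, for which the lone array is assumed to vary like the other groups, ran from -0.15 for Ang4 to 0.84 for Lyz1 probe set 1450822_at. Against D2 WT 3, the 1 wild-type array hybridized in the same run and on the same fluidics station, the 3 knockout arrays differed by -1.91 for Reg3g, -1.38 for Pla2g2a and -0.32 for Reg3a. The Reg3b probe sets differed by -1.08 and -1.52. Differences were -0.89 for Mmp7, -0.77 for Itln1 and -0.73 and -0.94 for Ang4, smaller than against all 3 D2 WT arrays. D2 WT 3 had the lowest D2 WT readings of Mmp7, Itln1 and Ang4.

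Levels of other cell types moved with these arrays. The mean log2 level of the 14 acinar genes, relative to their 12-array mean, was -4.51 on D2 KO 2 and -3.39 on D2 KO 3 and lay between -1.43 and 2.04 on the other 10 arrays. The level of the 8 measured B and plasma cell genes was -0.51 and -1.09 on D2 KO 2 and D2 KO 3 and -0.16 to 0.64 elsewhere, and that of the 10 T and NK cell genes was -0.87 and -0.51 against -0.47 to 0.82. The 11 macrophage and monocyte genes stood at -0.34 and -0.31 there, against -0.06 to 0.21. By contrast, goblet cell genes (-0.26 and -0.22), crypt stem and progenitor genes (-0.10 and -0.02) and enterocyte genes (-0.08 and -0.19) on D2 KO 2 and D2 KO 3 lay within the range of the other arrays. The level of the 8 smooth muscle genes was highest on these arrays, at 0.16 and 0.39 against -0.23 to 0.14 elsewhere. Brunner gland and gastric genes differed widely within groups, not only on these arrays. Their level ran from -1.77 to 3.02 in B6 WT and from -2.16 to 3.07 in B6 KO mice. It ran from -2.67 to 1.66 in D2 WT and from -2.74 to -0.69 in D2 KO mice.

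D2 KO 2 and D2 KO 3 were the lowest pair for 14 of 14 acinar and 6 of 8 B and plasma cell genes. The same held for 4 of 10 T and NK cell, 4 of 11 macrophage and monocyte and 3 of 11 goblet cell genes. It held for 1 of 11 enterocyte and 0 of 9 stem and progenitor genes, beside 4.14% of all kept probe sets. The goblet cell share (27.3%) was thus also above that of all kept probe sets. With the acinar level as a covariate, 0 of the 12 antimicrobial probe sets passed in D2 mice, beside 0.125% of all kept probe sets, and the estimates shrank to -0.86 for Mmp7, -0.56 for Reg3g and -0.22 and -0.33 for Reg3b, while those of Reg3a (0.29) and Lyz1 probe set 1450822_at (0.32) turned positive. None of the 12 had passed without the covariate either, and the acinar level was itself lowest on D2 KO 2 and D2 KO 3. Estimates of genes low on those arrays therefore shrink with it whatever the reason, so the smaller values show no share due to pancreas. The part of pancreatic tissue or of immune cells in the lower antimicrobial signals was not tested.

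**Figure D3:**
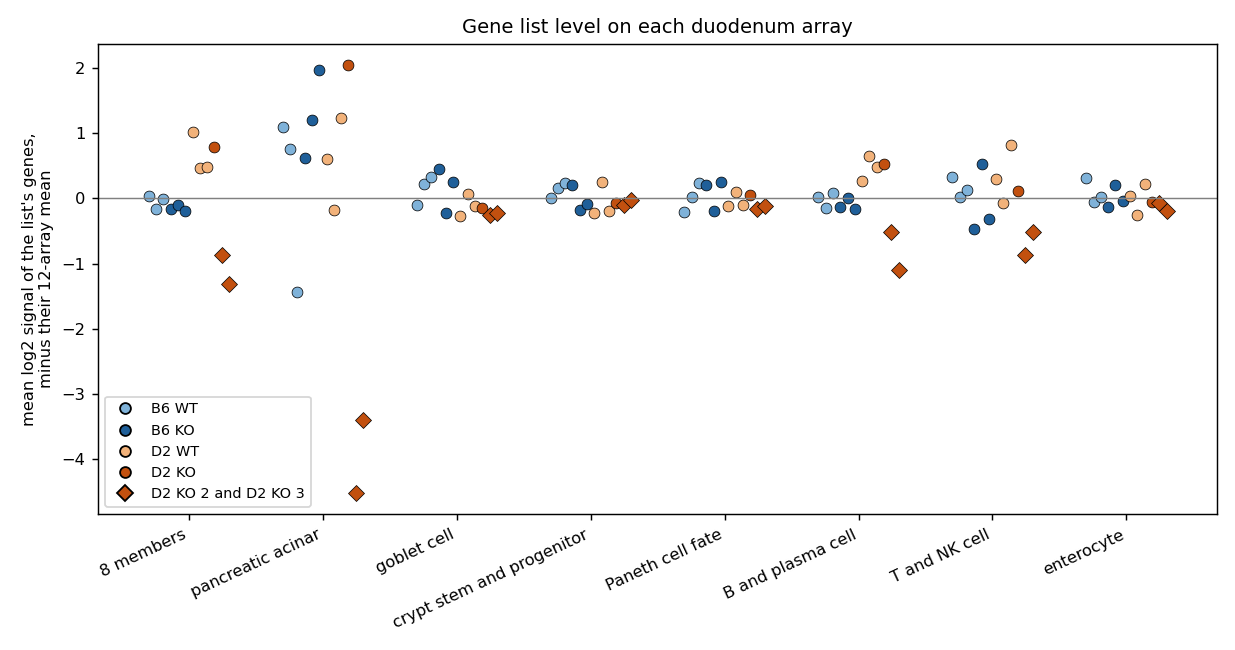
Mean log2 signal of the genes of each list on each duodenum array, relative to the 12-array mean of those genes; circles are arrays colored by group and diamonds are D2 KO 2 and D2 KO 3. Both diamonds are lowest for the 8 antimicrobial genes (-0.87 and -1.31), acinar, B and plasma cell and T and NK cell lists and lie among the circles for goblet cell, stem and progenitor, Paneth cell fate and enterocyte lists.

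Genes that set up a Paneth cell and its secretion were looked at next. Of 21 listed genes for Paneth cell fate and secretion, such as the transcription factors Sox9, Atoh1 and Xbp1, 16 were kept and 0 were called in D2 KO against D2 WT mice, beside the 0.378% of all kept probe sets, a share at which a list of this size would seldom hold a call. Their median log2 fold change was -0.02 beside 0.03 over all kept probe sets. D2 KO 2 and D2 KO 3 were the lowest pair for 3 of the 16 (18.8%), beside 4.14% of all kept probe sets. Atoh1 stood at -0.45 (adjusted p = 0.291 by limma). Among 12 kept genes of the IL-22, STAT3 and toll-like receptor pathway, which induces Reg3b and Reg3g, 0 were called as well and the median was -0.04. The smallest adjusted p belonged to the endotoxin receptor Tlr4 (-1.16, adjusted p = 0.337 by limma). Its signals lay near or below the signal minimum of 20 used to keep probe sets. They were 24.6, 19.5 and 20.9 in D2 WT and 19.7, 8.62 and 5.3 in D2 KO mice.

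Among relatives of these genes, the alpha-defensin Defa39 read 5587, 3316 and 4059 in D2 WT and 4802, 1719 and 858 in D2 KO mice, with a log2 fold change of -1.14 (SE 0.43, adjusted p = 0.327 by limma). It thus showed the same arrangement as Mmp7. The probe set 1450631_x_at, which carries more than 1 alpha-defensin symbol, read 8445, 5947 and 6968 and then 7443, 3948 and 2701. Reg1, a family neighbor made by acinar cells as well as gut, stayed between 7427 and 10020 on all 12 arrays. Reg2 ranged from 24.5 to 3545, lowest on D2 KO 2 and D2 KO 3 (24.5 and 40.1), and Reg3d from 19.7 to 386. Reg4 and Mmp10 were not split: they read 1019, 881 and 1013 and 243, 209 and 231 in D2 KO mice. Mptx1 read 226, 141 and 135 in D2 WT and 91.8, 91.8 and 105 in D2 KO mice, low on D2 KO 1 too. Of 16 kept genes on a second Paneth cell list, D2 KO 2 and D2 KO 3 were the lowest pair for 5, beside 4.14% of all kept probe sets. These were Lyz2, Reg2, Nupr1, Tmed6 and Pla2g5. Lyz2 is also on the macrophage and monocyte list, and Pla2g5 was weak, at 7.92 to 32 on the duodenum arrays. The count is therefore not one of Paneth cell genes alone.

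In B6 mice the knockout arrays did not fall apart in this way, and the lowest estimates were those of Reg3b and Reg3g. Of the 12 probe sets 0 were called in B6 KO against B6 WT mice, as were 0.0107% of all kept probe sets, and 0 had an unadjusted p under 0.05, beside 5.66%. Estimates ran from -0.89 to 0.28 on the log2 scale with a median of 0.02 beside -0.01 over all kept probe sets. Mmp7 read 379.5, 392 and 499 in B6 WT and 520.5, 463.5 and 321 in B6 KO mice, and Itln1 read 3402, 3203 and 4099 and then 3957, 3360 and 2743. Both genes overlapped between genotypes.

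Ang4 was similarly placed, at 2710 ± 398 (SD, n = 3) in B6 WT and 2730 ± 416 in B6 KO mice on 1438364_x_at and at 911 ± 191 and 915 ± 99.5 on 1440832_at. The abundant Lyz1 signal on 1436996_x_at was 7210 ± 252 in B6 WT and 7840 ± 1110 in B6 KO mice, against 8150 ± 1200 in D2 WT and 5760 ± 1790 in D2 KO mice. The spread of Lyz1 was thus widest in the D2 KO group. Reg3a, low in B6 mice, read 129, 348 and 189 in B6 KO mice and spanned the B6 WT readings on both sides.

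By probe set 1448290_at Reg3b read 5274, 4206 and 4494 in B6 WT and 2358, 2774 and 3613 in B6 KO mice, so that every knockout array lay below every wild-type array, an arrangement found in this direction in 6.13% of all kept probe sets. The log2 fold change was -0.69 (SE 0.35, adjusted p = 0.874 by limma). By 1416297_s_at the groups overlapped (5866, 3284 and 3992 against 1593, 2209 and 3408) with an estimate of -0.89 (SE 0.55, adjusted p = 0.880). Reg3g read 2015, 1353 and 1473 in B6 WT and 830.5, 769 and 1552 in B6 KO mice, overlapping through the last array, at -0.67 (SE 0.56, adjusted p = 0.903). Only B6 KO 1 was hybridized in the same run as the B6 WT arrays; there the differences were -0.98 and -1.42 for the Reg3b probe sets and -0.94 for Reg3g.

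Whether the loss of Hfe acted differently in the strains was tested as the D2 effect minus the B6 effect. Of the 12 probe sets 0 were called, as were 0.0143% of all kept probe sets, and 5 had an unadjusted p under 0.05, all in the lower direction, beside 4.34% of all kept probe sets. The differences were -2.19 (SE 0.90, adjusted p = 0.438 by limma) for Pla2g2a, -1.42 (SE 0.64, adjusted p = 0.468) for Mmp7 and -1.27 and -1.56 for the Ang4 probe sets. Without D2 KO 1, 6 of the 12 were called (Pla2g2a, Mmp7, Itln1, Reg3g and both probe sets of Ang4), all of them lower, as were 0.666% of all kept probe sets. D2 KO 1 was singled out by its values, so these calls describe the split and do not test the difference. Without D2 KO 2 and D2 KO 3, 0 of the 12 were called, and the differences were -0.14 for Pla2g2a, -0.088 for Mmp7 and -0.16 and -0.048 for Ang4, while those of Itln1 (0.26), Reg3g (0.91) and Reg3b (0.98 and 1.34) were above 0. The negative differences of Pla2g2a, Mmp7 and Ang4 thus rested on D2 KO 2 and D2 KO 3.

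**Figure D4:**
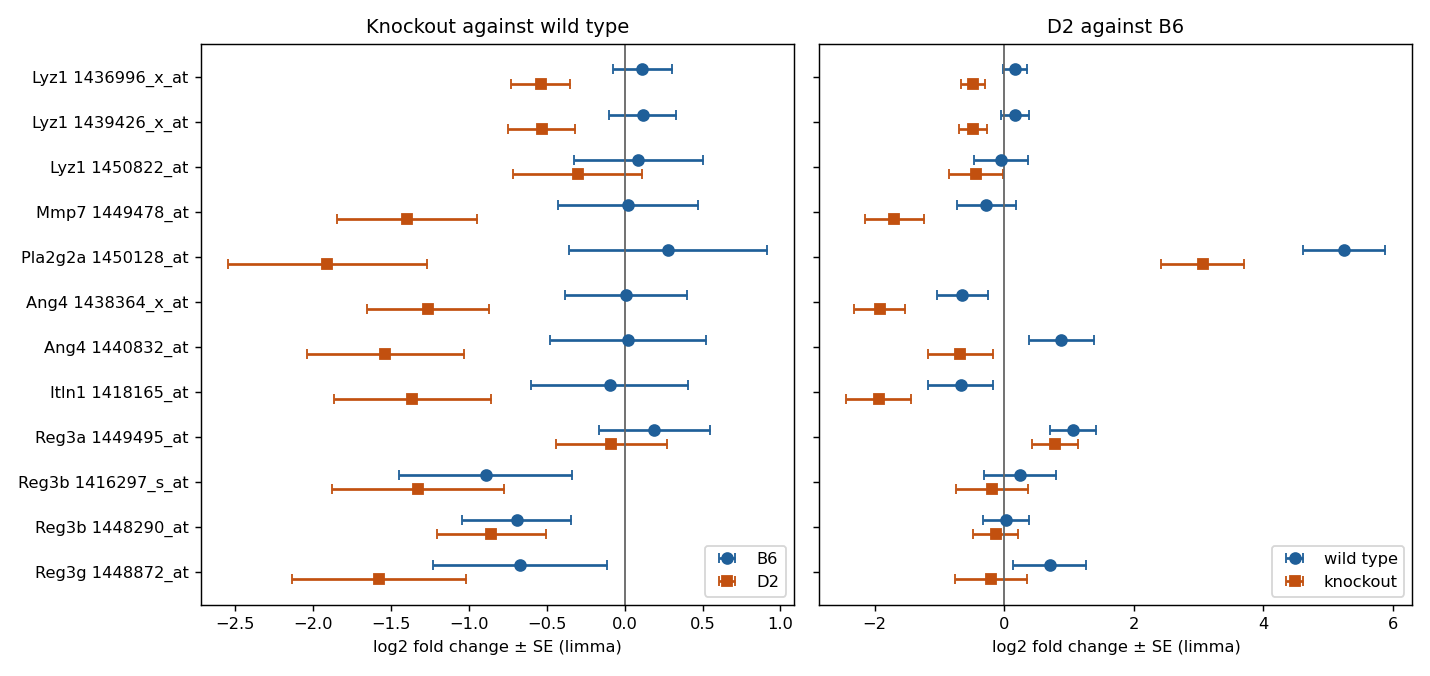
Log2 fold changes with standard errors (limma, 3 arrays per group) of the 12 probe sets, left for knockout against wild type in B6 (circles) and D2 (squares) mice, right for D2 against B6 in wild-type (circles) and knockout (squares) mice. On the left all D2 estimates are below 0 and the B6 estimates lie between -0.89 and 0.28; on the right Pla2g2a stands at 5.25 and 3.06.

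The largest strain difference among these genes was that of Pla2g2a. It read 64.3, 77.3 and 87.9 in B6 WT and 112, 83.4 and 83.5 in B6 KO mice, whereas the lowest D2 reading was 290. All 6 D2 arrays were thus above all 6 B6 arrays. In wild-type mice Pla2g2a was called higher in D2, by 37.9-fold (log2 fold change 5.25, SE 0.64, adjusted p = 0.000194 by limma), and it was the 1 of 12 probe sets called, beside 3.37% of all kept probe sets called and 1.28% called higher. The reference annotation, which comes from the C57BL/6J strain, lists Pla2g2a as a transcribed pseudogene.

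The D2 WT and B6 WT arrays were hybridized in different runs and shared none. With the run as a block, in which the B6 KO arrays link the runs, the difference was 5.67 (SE 1.19, adjusted p = 0.0474) and missed the threshold of 0.01, as it did with run and fluidics station as a block (5.93, adjusted p = 0.0631). No run held both wild-type groups, so within a run strain and run cannot be told apart for them. Within the later run, the D2 KO arrays exceeded the B6 KO arrays by 3.20 on the log2 scale (3 against 2 arrays).

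Between the knockout strains Pla2g2a was called as well, at 3.06 (SE 0.64, adjusted p = 0.00987 by limma), as 1 of 2 probe sets called among the 12 beside 3.65% of all kept probe sets. The other was Ang4 probe set 1438364_x_at, at -1.92 (SE 0.39, adjusted p = 0.00857). Both calls were near the threshold of 0.01 and were lost in 15 of 23 other settings each. Without D2 KO 2 and D2 KO 3, Pla2g2a stood at 5.11 and Ang4 at -0.81. Itln1 and Mmp7 were at -1.94 (adjusted p = 0.0330) and -1.69 (adjusted p = 0.0369) and did not pass at 0.01. Without D2 KO 2 and D2 KO 3 they were at -0.41 and -0.36. Without D2 KO 1 they were at -2.70 (adjusted p = 0.000218) and -2.36 (adjusted p = 0.000379) and passed, and 4 of the 12 and 3.93% of all kept probe sets were called. As above, that array was singled out by its values, so these calls are a description.

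The 2 probe sets of Ang4 disagreed about the strains. On 1438364_x_at the wild-type B6 arrays read 2532, 2427 and 3162 and the D2 arrays 2499, 1701 and 1185, for a log2 fold change of -0.65 (SE 0.39, adjusted p = 0.429 by limma). On 1440832_at they read 888, 732 and 1112 and then 2890, 1426 and 1095, for a log2 fold change of 0.88 (SE 0.50, adjusted p = 0.395). Neither estimate was called and their signs were opposite; over the 12 arrays the 2 probe sets correlated with r = 0.661, against 0.990 for the Reg3b pair and 0.979 for the strong Lyz1 pair. No direction for Ang4 between the strains is given here.

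Reg3a and Reg3g also had all 3 D2 WT arrays above all 3 B6 WT arrays, as did 11.2% of all kept probe sets. Reg3a read 260, 167 and 132 in B6 WT mice, against 268 to 440 in D2 WT mice, at 1.06 on the log2 scale (SE 0.36, adjusted p = 0.117 by limma), and its estimate was -0.05 with run and station as a block. Lyz1 was at 0.17 (SE 0.19) and 0.16 (SE 0.22) on its strong probe sets, differences smaller than their errors.

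The strains were also compared for relatives of these genes. The probe set 1436857_at, which carries more than 1 alpha-defensin symbol, read 133 to 196 in B6 WT mice and at most 1.19 in D2 WT mice, below the signal minimum of 20 used to keep probe sets, so that no fold change is given. Ang, another member of the angiogenin family, read 721 to 1024 in B6 WT and 19.2 to 41.2, near that minimum, in D2 WT mice on 1438936_s_at (log2 fold change -4.95, adjusted p = 5.25e-07 by limma). On 1438937_x_at it read 307 to 333 and 44.8 to 61.5 (-2.56, adjusted p = 1.85e-06 by limma). On 1450717_at, by contrast, it read 124 to 140 and 107 to 136 (-0.18, adjusted p = 0.566).

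Across arrays the genes fell into sets that rose and fell together. Over the 12 duodenum arrays, Mmp7, Ang4 (1438364_x_at) and Itln1 correlated with each other on the log2 scale, at r = 0.975 to 0.989, and Reg3b (1448290_at) with Reg3g at r = 0.959. These correlations are descriptions over arrays that share strain, genotype and run. Without D2 KO 2 and D2 KO 3 the first set stayed at 0.876 to 0.952 and the Reg3b and Reg3g pair at 0.904 (10 arrays), and in the 6 B6 arrays alone they were 0.919 to 0.947 and 0.923. Between the sets the sign depended on those arrays: Ang4 (1438364_x_at) with Reg3g gave 0.431 over 12 arrays and -0.800 over 10. Mmp7 with Reg3g gave 0.538 over 12 arrays and -0.651 over 10. The other Ang4 probe set, which disagreed with 1438364_x_at about the strains, was not used for these correlations or those below. Lyz1 followed Mmp7 at 0.863 over 12 arrays and 0.355 over 10.

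Other transcripts with the most similar pattern over the 12 arrays were Defa39 (r = 0.955 with Mmp7 and 0.952 with Itln1) and Dnajb11, which encodes a chaperone of the endoplasmic reticulum (0.961 and 0.944, and 0.956 with Ang4). Manf, which encodes another protein of that compartment, followed at 0.931 and 0.932. The 5 closest to each gene also held Got2 and Igkv8-30 for Mmp7 (0.928 and 0.919), Mxra8 and Mcm6 for Itln1 (0.933 and 0.928), and Zeb2, Mcm6, Defa39 and Serping1 for Ang4 (0.932 to 0.946). The closest to Pla2g2a was a probe set of Ccl28, a mucosal chemokine with antimicrobial activity (0.969), before Ripk3, Snhg1, Wdr46 and Cox18 (0.944 to 0.953). Another Ccl28 probe set did not show the strain difference of Pla2g2a. It read 205 to 269 on the B6 arrays, 222 to 256 on the D2 WT arrays and 217, 166 and 173 on the D2 KO arrays. The similarity is therefore that of a probe set and is not shown for the gene.

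Several of the closest transcripts belong to immune cells. For Lyz1 they were Fanci (0.957), Ly86 (0.942), Tnfrsf13b from the B and plasma cell list (0.932), the lymphocyte cytokine gene Il16 (0.929) and Defa39 (0.929). For Reg3b they were Slc9a3r2 (0.913), the immunoglobulin segment Igkv9-120 (0.911), Ero1b (0.899), AI504432 (0.897) and the leukocyte ligand gene Selplg (0.891), and for Reg3g they were Limd2 (0.912), Igkv9-120 (0.901), AI504432 (0.889), Mfng (0.876) and the T cell receptor segment Trav9d-3 (0.875). B and plasma cell and T and NK cell genes were low on D2 KO 2 and D2 KO 3, as given above, and their part in these correlations was not tested. The closest to Reg3a were Armc8 (0.930), Rbp2 (0.921), a retinol-binding protein of enterocytes, Mttp (0.918), which loads lipid onto lipoproteins, Usp16 (0.917) and Ndrg3 (0.916).

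Reg3b and Reg3g moved together whereas Reg3a did not, so the stretches just upstream of these 3 genes, which stand in 1 cluster on chromosome 6 with Reg1, Reg2 and Reg3d, are shown for comparison. Each line gives the 150 bases that end at the base before the annotated gene start, 5′ to 3′ on the strand of the gene, from RefSeq on GRCm38.p6, which gave an upstream stretch for 6 of the 8 genes; this is C57BL/6J sequence, and DBA/2 may differ from it. Reg3b lies at chr6:78370735-78370884 (plus strand), Reg3g at chr6:78468875-78469024 (minus strand) and Reg3a at chr6:78380559-78380708 (plus strand). Capitals mark matches, on either strand, to TATAAA (the TATA box), TTCNNNGAA (a STAT element) or CTTTGAT and CTTTGAA (TCF/LEF elements).
Reg3b: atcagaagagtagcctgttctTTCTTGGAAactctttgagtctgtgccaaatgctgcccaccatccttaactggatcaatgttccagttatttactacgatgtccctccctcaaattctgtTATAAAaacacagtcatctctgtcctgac
Reg3g: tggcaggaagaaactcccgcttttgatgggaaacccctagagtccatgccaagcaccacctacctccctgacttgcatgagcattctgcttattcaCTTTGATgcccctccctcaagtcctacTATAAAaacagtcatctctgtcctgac
Reg3a: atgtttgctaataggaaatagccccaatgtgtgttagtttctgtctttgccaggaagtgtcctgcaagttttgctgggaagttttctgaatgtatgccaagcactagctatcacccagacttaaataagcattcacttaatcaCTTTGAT

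In an alignment over their whole length, the Reg3b and Reg3g stretches were identical in 104 of 152 columns (68.4%), and their last 20 bases, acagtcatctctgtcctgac, were the same. Reg3a was identical to Reg3b in 49.4% and to Reg3g in 46.2% of columns, close to the 44.8% to 52.0% between unrelated members (Lyz1, Mmp7 and Ang4 against each other or against the Reg3 genes). TATAAA began 29 bases before the start of Reg3b and 27 before that of Reg3g and was not found in the Reg3a window; 7.57% of 32851 annotated mouse promoter windows of the same length hold it. The STAT match was in Reg3b (4.09% of windows) and the TCF/LEF match in Reg3g and Reg3a (4.13% of windows). A match is a string of letters and was not tested as a binding site.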

How the data were processed

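Total RNA from 12 duodenum and 12 liver samples was hybridized to 24 Affymetrix whole-genome mouse arrays. The deposited values are MAS5 signal intensities on a linear scale, which the authors summarized from the probes of each probe set and scaled to a common trimmed mean on every array; the version of MAS5 is not given in the sources used here. No depth exists for arrays, and the 3 mice per group limit the precision. Probe sets were named from the platform annotation, in which 34958 carry 1 gene symbol, 932 several and 9211 none.

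Probe sets whose third-highest signal reached 20 in either tissue were kept (28061, control probe sets left out). The log2 signals of the 12 duodenum arrays, with no pseudocount, were fitted as 4 groups with limma 3.58.1 in R 4.3.3 (empirical Bayes with a mean-variance trend), with Benjamini-Hochberg adjustment across every kept probe set. Knockout effects and their difference between strains were called where the adjusted p did not exceed 0.1, and strain differences where it did not exceed 0.01. The pipeline was tested on simulated data. An exact two-sided permutation test of 3 against 3 arrays cannot give a p below 0.1. Hybridization runs were taken from the array records, where gaps over 60 minutes separated them: the B6 WT arrays and B6 KO 1 formed the earlier run and the other 8 the later one.

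The 8 genes and all gene lists were chosen with earlier results of these data known. Named in the text were every probe set of the 8 genes, their family members, up to 4 genes of a list with the smallest adjusted p in a comparison, and the 5 transcripts most correlated with each gene. Alternatives were a pseudocount, quantile normalization, other filters, other fits, run, station, replicate or acinar level in the model, arrays left out, and another threshold. Upstream sequences were aligned with Biopython 1.88. No columns of the authors' own comparisons were used.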

Additional observations from a re-analysis of the deposited data

How the results depend on the processing

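Of the fold changes given for single genes, 573 values over the alternatives kept direction and side of the threshold, 16 became calls, 32 lost a call and 18 changed sign; of the other fold changes of the 8 genes 79 changed sign. Without D2 KO 2 and D2 KO 3 the D2 knockout estimates turned positive for Reg3b (0.45 and 0.28), Reg3a (0.39), Reg3g (0.24), Itln1 (0.16), Pla2g2a (0.14) and Lyz1 (0.021 for 1439426_x_at and 0.84 for 1450822_at), and with the acinar level as covariate for Reg3a (0.29) and Lyz1 1450822_at (0.32). Leaving out 1 array moved Reg3a between -0.32 and 0.16 and Lyz1 1450822_at between -0.87 and 0.13. Reg3a between wild-type strains was -0.052 with run and station as a block, and Ang4 1440832_at between knockout strains was 0.28 with that block, 0.15 with the acinar level and 0.83 without D2 KO 2 and D2 KO 3. The cause was not tested.

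Of all kept probe sets, 106 were called for the D2 knockout, against 21 with only the compared groups fitted, 31 without the trend, 45 with the run as a block, 35 with the acinar level, 27 without D2 KO 2 and D2 KO 3, 30 at an adjusted p of 0.05, and 17 to 783 leaving out 1 array; of the 12 probe sets described here, 0 to 10 were called leaving out 1 array. For the B6 knockout 3 were called, against 0 with only the compared groups, 6 without the trend, 6 with the run and 6 with run and station as a block, and 1 to 6 leaving out 1 array. The difference between strains gave 4, against 1 without the trend, 1 with the run and 1 with run and station, and 2 to 349 leaving out 1 array (0 to 6 of the 12). The wild-type strains gave 946, against 616 with only the compared groups, 104 with the run, 92 with run and station, 1780 at 0.05 and 616 to 974 leaving out 1 array; of the 12, 1 was called, and 0 with the run or with run and station. The knockout strains gave 1025, against 104 with run and station, 558 with the acinar level, 312 without D2 KO 2 and D2 KO 3, 2123 at 0.05 and 648 to 1102 leaving out 1 array. Of the 12, 2 were called there, against 1 with a signal minimum of 100, with the acinar level or without D2 KO 2 and D2 KO 3, 0 with only the compared groups, without the trend, with the run or with run and station, 4 at 0.05 and 0 to 4 leaving out 1 array.

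With the replicate number as a block, 42 (D2 knockout), 2 (B6 knockout), 5 (difference), 749 (wild-type strains) and 847 (knockout strains) probe sets were called, and 0, 0, 0, 1 and 2 of the 12. The numbers did not pair the arrays: deviations of 18 same-numbered pairs correlated at -0.203 to 0.116, and 2 of 12 arrays correlated best with their own number. Fitting only the compared groups was not run for the difference between strains, which needs all 4, and Lyz1 1450822_at has no value at a signal minimum of 100.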
